A study of Mus musculus with 16 samples.

Results

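Ddit4, Sesn1, Sesn2, Sesn3, Pdcd4, Eif4ebp1, Irs2, Foxo1 and Foxo3 are 9 genes that act on, or are acted on by, the growth pathway of PI3K, AKT and mTORC1. They were taken by their symbols from the 49585 genes measured in each library. All 9 were measured, and all 9 passed the filter on low values in every comparison.

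RNA came from CD45+ cells, the nucleated cells of the blood lineage, taken from bone marrow and from spleen in C57BL/6J mice, 12 weeks old, carrying Dbh-Cre. Dbh encodes dopamine beta-hydroxylase, the enzyme that makes noradrenaline, so Cre acts in catecholaminergic neurons. A virus placed in the VLM, a region of the brainstem, on both sides carried either AAV-DIO-hM3Dq-mCherry or, in the control mice, AAV-DIO-mCherry, each switched on only where Cre is present. hM3Dq is a designer receptor that excites neurons when clozapine N-oxide (CNO) binds it, and the mice of both groups received CNO 4 h before the cells were taken. Each virus and tissue gave 4 libraries, numbered 5 to 8 for hM3Dq and 1 to 4 for mCherry, and the study calls them biological replicates. No library received vehicle in place of CNO, and the receptor is made in neurons, so its transcript is no check on these cells. The question was how the activity of these neurons changes gene expression in immune cells of the marrow and spleen.

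The pathway works as follows. Growth factors and insulin activate PI3K, which activates the kinase AKT, and AKT in turn releases mTORC1, a kinase complex that drives protein synthesis when amino acids are plentiful. Ddit4 and the sestrins hold mTORC1 back, Pdcd4 and Eif4ebp1 hold back the initiation of translation, and Foxo1 and Foxo3 are transcription factors that AKT keeps out of the nucleus. Irs2 is not a brake: it is an adaptor that passes the insulin signal to PI3K, and it is known in liver as a target gene of the FOXO factors. Lymphocytes use the same pathway to move between rest and growth, and glucocorticoid hormones are known to induce Ddit4 in several tissues. All values here are transcript levels, which do not report the phosphorylation by which most of this pathway is switched.

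Promoters could be read for 8 of the 9 genes, in 10 windows. Each window runs from 250 bases before to 50 after a transcription start in the RefSeq table for GRCm38.p6. Sequences are shown for the genes that rose in either tissue, Ddit4, Sesn1, Pdcd4 and Irs2. The window of Pdcd4 at its first start held no match and is not shown. The lines give the part before the start that no exon of a coding transcript in GENCODE M21 covers, or 30 bases around a match that lies after a start, 5′ to 3′ on the strand of the gene, with matches in capitals.
Ddit4, chr10:59951835-59952020, minus strand: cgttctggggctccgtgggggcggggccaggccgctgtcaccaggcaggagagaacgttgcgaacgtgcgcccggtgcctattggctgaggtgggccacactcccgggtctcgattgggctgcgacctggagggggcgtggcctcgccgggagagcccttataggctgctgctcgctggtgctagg
Sesn1 at its first start, chr10:41810585-41810614, plus strand: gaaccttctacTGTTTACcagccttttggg
Sesn1 at its second start, chr10:41887189-41887438, plus strand: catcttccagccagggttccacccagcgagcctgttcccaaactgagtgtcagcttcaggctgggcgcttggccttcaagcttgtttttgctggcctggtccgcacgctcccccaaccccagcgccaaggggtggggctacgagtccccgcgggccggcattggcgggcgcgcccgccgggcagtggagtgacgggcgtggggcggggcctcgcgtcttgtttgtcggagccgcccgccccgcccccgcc
Pdcd4 before its second start, chr19:53903101-53903298, plus strand: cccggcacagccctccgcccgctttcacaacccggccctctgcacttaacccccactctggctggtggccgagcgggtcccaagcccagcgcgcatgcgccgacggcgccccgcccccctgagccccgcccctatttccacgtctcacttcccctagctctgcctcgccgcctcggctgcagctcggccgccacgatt
Pdcd4 around its second start, chr19:53903349-53903378, plus strand: gtgttactgggtAGAACAaaacaaaaacaa
Irs2, chr8:11008930-11009179, minus strand: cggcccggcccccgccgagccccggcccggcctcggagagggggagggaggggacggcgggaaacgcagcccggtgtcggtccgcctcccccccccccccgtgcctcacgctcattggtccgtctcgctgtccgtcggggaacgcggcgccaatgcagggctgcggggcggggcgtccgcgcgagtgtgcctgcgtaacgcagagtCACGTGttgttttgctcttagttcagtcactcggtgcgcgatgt

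A total of 6 motifs were searched on both strands of the whole windows. The short glucocorticoid element, TGTTCT, was in 1 of the 10 windows, that of Pdcd4 at its second start, where it lies on the opposite strand from base 11 after the start, and in 19% of 32851 RefSeq promoters. The full glucocorticoid element, which contains it (AGAACA, any 3 bases, TGTTCT), was in 0 of the 10 windows and in 0.00913% of all promoters. The FOXO element GTAAACA was in 1 window, on the opposite strand of Sesn1 from base 23 after its first start, and in 3.65% of all promoters. The E-box CACGTG was in 1 window, that of Irs2 from base -44 relative to the start, and in 7.15% of all promoters. The amino acid response element TGATGCAA and the cAMP element TGACGTCA were in 0 of the 10 windows, and in 0.895% and 1.79% of all promoters. These windows are short, so a window without a match says only that these letters are not in it.

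The libraries held 11.34 to 16.96 megafragments assigned to genes, so that a single fragment assigned to a gene with 2 kilobases of exon amounted to 0.0295 to 0.0441 FPKM (fragments per kilobase of exon and megafragment assigned). CD45 itself, encoded by Ptprc, was present throughout, at 27.8 to 44.8 FPKM in bone marrow and 66.2 to 93.5 in spleen, and summed levels of 8 stromal, endothelial and epithelial markers were 2.595 to 8.16 FPKM. Bone marrow was rich in neutrophil transcripts, with S100a8 at 8899 to 13380 FPKM, and spleen in those of B cells, with Cd79a at 342 to 452 FPKM. Haemoglobin transcripts, which mark red cell precursors, were lowest in hM3Dq replicate 6, at 0.391% of fragments in bone marrow and 0.133% in spleen. They were also low in bone marrow hM3Dq replicate 5 (0.564%) and reached 2.84% in the other marrow libraries.

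Ddit4, Pdcd4 and Irs2 rose in bone marrow of hM3Dq mice, and Ddit4, Sesn1 and Pdcd4 rose in spleen. None of the 9 genes fell in either tissue. Ddit4 was 8.32-fold higher in bone marrow and 4.82-fold higher in spleen, Pdcd4 2.00-fold and 2.38-fold higher, and Sesn1 2.64-fold higher in spleen. A gene is called changed here at an adjusted p below 0.05 in limma with the Benjamini-Hochberg adjustment over all genes of a comparison, and ± after a log2 change is its standard error with 4 libraries a group. In bone marrow 3 of 9 genes were called higher, where 3.14% of the 16095 genes tested were higher, and 0 of 9 lower, where 1.71% were (1 of 9 lower at an unadjusted p below 0.05, and 0 of 9 with voom weights). In spleen 3 of 9 were called higher, where 3.72% of 17076 genes were higher, and 0 of 9 lower, where 4.42% were (again 1 and 0). The median log2 change of the 9 genes was 0.23 in bone marrow, against -0.0042 over all genes, and 0.27 in spleen, against -0.0071. The 9 genes were chosen with earlier results of these data known, so these shares and medians are no test of the set. The split of all calls in bone marrow, 505 higher and 276 lower, depends on scaling for composition and was 640 and 158 without it. In RNA of mixed cells, a change in the share of cells that express a gene and a change in its RNA per cell cannot be told apart.

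**Figure D1:**
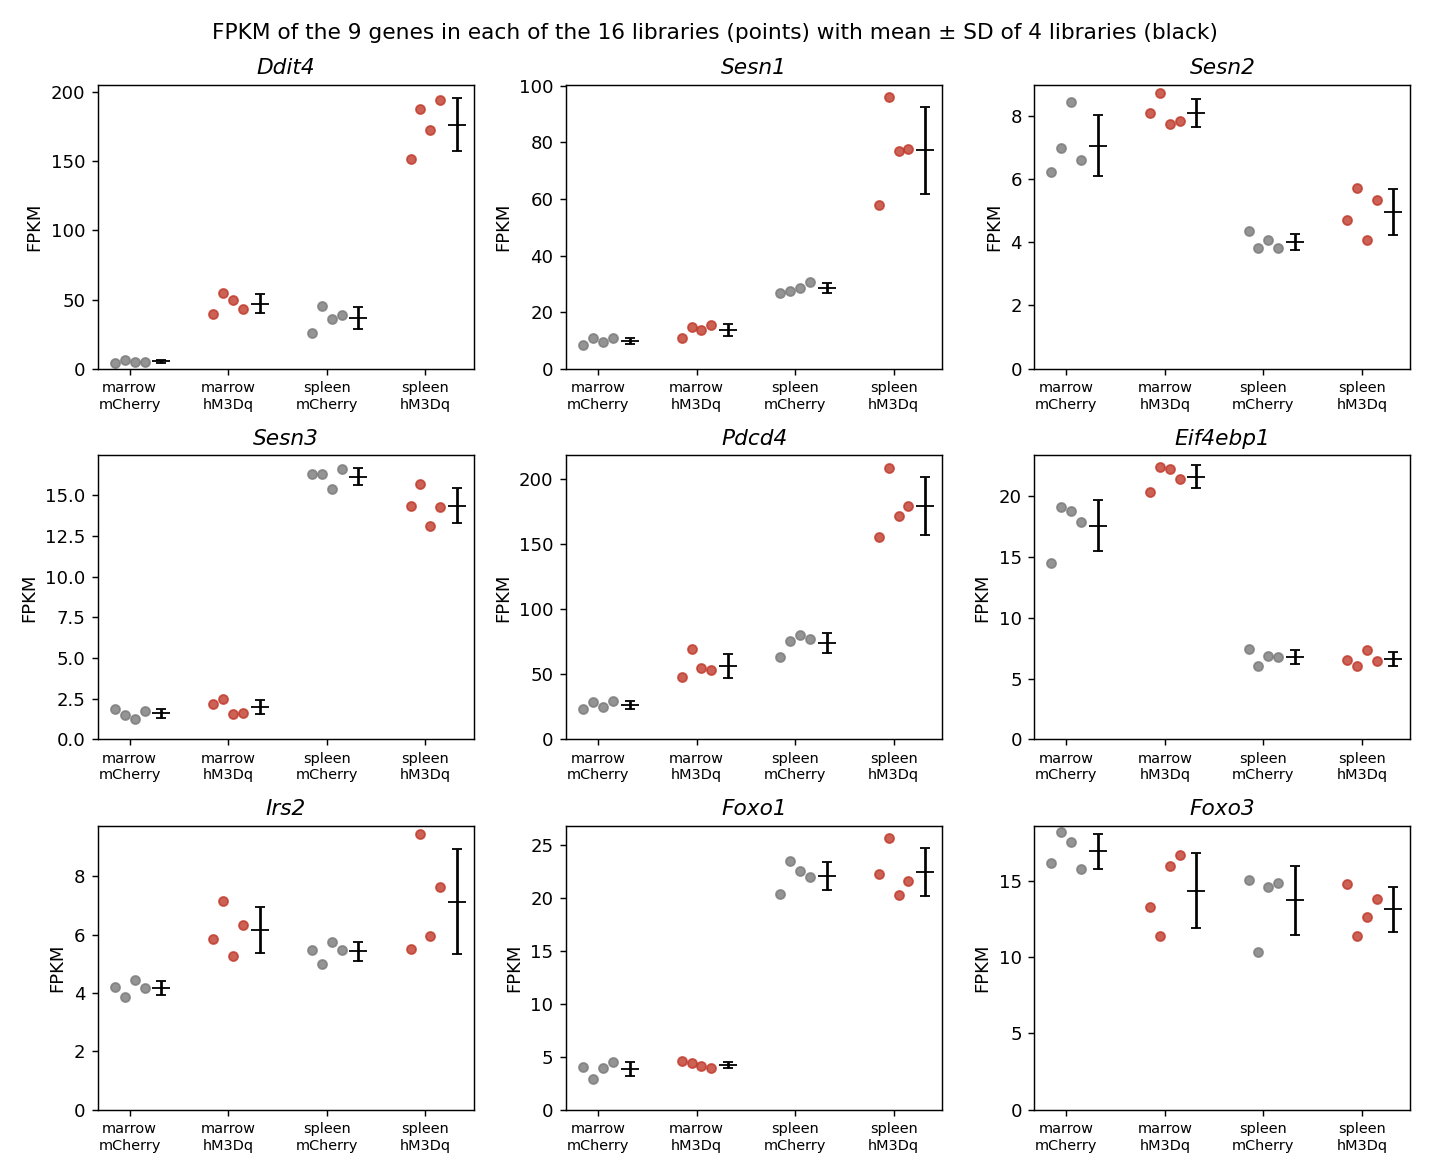
Levels of the 9 genes in FPKM (linear axes from 0) in each of the 16 libraries, with a panel per gene, points for libraries and black bars for the mean ± SD of 4 libraries. The hM3Dq points of Ddit4, 39.6 to 54.9 FPKM in bone marrow and 152 to 195 in spleen, lie above all mCherry points of their tissue, while those of Foxo1 lie among them.

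Ddit4 (ENSMUSG00000020108, GRCm38 chromosome 10, 59949669 to 59951834) encodes an inhibitor that works through the TSC complex to lower mTORC1 activity under stress. In bone marrow it stood at 39.6, 54.9, 49.98 and 43.1 FPKM in hM3Dq replicates 5 to 8 and at 4.26, 6.68, 5.11 and 5.17 FPKM in mCherry replicates 1 to 4. The lowest hM3Dq library was far above the highest mCherry library, and even the low values rested on 108 to 160 fragments. The log2 change was 3.06 ± 0.14 (limma adjusted p = 1.55e-05), the third largest rise and the second smallest p of the 16095 genes. In spleen it stood at 152, 188, 173 and 195 FPKM in hM3Dq libraries and at 26.1, 45.4, 36.3 and 38.9 FPKM in mCherry libraries. The groups were again wide apart, with mCherry replicate 1 the lowest control, and the log2 change was 2.27 ± 0.17 (limma adjusted p = 7.76e-04), the 8th largest rise of 17076 genes. Both calls held in every one of the 17 alternatives run for each tissue, with values of 2.86 to 3.15 in bone marrow and 2.10 to 2.39 in spleen. By mean level, spleen hM3Dq (177 ± 19.1 FPKM, SD, n = 4) was followed by bone marrow hM3Dq (46.9 ± 6.88), spleen mCherry (36.7 ± 8.02) and bone marrow mCherry (5.30 ± 1.01). The ranges of bone marrow hM3Dq and spleen mCherry overlapped, and all other neighbours in that order were separate.

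Sesn1 (ENSMUSG00000038332, chromosome 10, 41809935 to 41908424), the first of the sestrins and a classical target of p53, responded in spleen. There it stood at 58.0, 95.9, 76.9 and 77.8 FPKM in hM3Dq libraries and at 26.9, 27.4, 28.5 and 30.8 FPKM in mCherry libraries. The mCherry values lay close together and far below every hM3Dq value, and the log2 change was 1.40 ± 0.12 (limma adjusted p = 0.00162), with 1.31 to 1.52 over 17 alternatives, all of them called. In bone marrow it stood at 10.8, 14.8, 13.8 and 15.5 FPKM in hM3Dq libraries and at 8.25, 10.7, 9.49 and 10.7 FPKM in mCherry libraries. These ranges nearly touched, hM3Dq replicate 5 being just above the highest control, and the log2 change of 0.41 ± 0.13 was not called (limma adjusted p = 0.111). Leaving out hM3Dq replicate 5 gave 0.53 and an adjusted p of 0.0263, the only one of the 17 alternatives that called it. The 4 groups were ordered as spleen hM3Dq (77.2 ± 15.5 FPKM), spleen mCherry, bone marrow hM3Dq and bone marrow mCherry (9.80 ± 1.19), with no overlap between neighbours.

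The other sestrins, which share with Sesn1 the binding of the GATOR2 complex that tells mTORC1 of amino acids, were not called in either tissue. Sesn2 (ENSMUSG00000028893, chromosome 4), the leucine sensor of the family and a gene induced by ATF4, stood at 8.08, 8.72, 7.73 and 7.82 FPKM in bone marrow hM3Dq libraries and at 6.21, 6.99, 8.44 and 6.58 in mCherry libraries. In spleen the values were 4.69, 5.71, 4.08 and 5.35 FPKM against 4.35, 3.82, 4.05 and 3.83. Both pairs of ranges overlapped, through mCherry replicate 3 in bone marrow and hM3Dq replicate 7 in spleen. Its log2 changes were 0.13 ± 0.11 in bone marrow (limma adjusted p = 0.483, 95% interval -0.10 to 0.37) and 0.27 ± 0.11 in spleen (adjusted p = 0.155, 0.024 to 0.52). Sesn3 (ENSMUSG00000032009, chromosome 9), a known FOXO target, stood at 14.4, 15.7, 13.1 and 14.3 FPKM in spleen hM3Dq libraries and at 16.3, 16.3, 15.4 and 16.6 FPKM in mCherry libraries. It was the sestrin whose spleen value pointed down, at -0.19 ± 0.06 (limma adjusted p = 0.0878), and only hM3Dq replicate 6 reached into the control range. In bone marrow Sesn3 was the lowest of the 9 genes, at 2.18, 2.46, 1.58 and 1.63 FPKM against 1.84, 1.502, 1.27 and 1.75. The ranges overlapped, and the log2 change was 0.21 ± 0.18 (limma adjusted p = 0.504).

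Pdcd4 (ENSMUSG00000024975, chromosome 19, 53892231 to 53929860) encodes a protein that binds the helicase eIF4A and so blocks the start of translation. It had the highest mean level of the 9 genes in all 4 groups, on the length-corrected FPKM scale. In spleen hM3Dq libraries Ddit4 was close, at a mean of 177 against 179 FPKM, with overlapping ranges. In bone marrow it stood at 47.6, 69.1, 54.8 and 53.6 FPKM in hM3Dq libraries and at 23.3, 28.9, 24.9 and 29.2 FPKM in mCherry libraries. Every hM3Dq library was above every mCherry library, and the log2 change was 1.00 ± 0.12 (limma adjusted p = 0.00426). In spleen it stood at 156, 209, 172 and 180 FPKM in hM3Dq libraries and at 63.0, 75.8, 80.4 and 77.3 FPKM in mCherry libraries. The lowest hM3Dq library, replicate 5, was again clear of the controls, and the log2 change was 1.25 ± 0.10 (limma adjusted p = 0.00121). All 17 alternatives of each tissue called it, at 0.90 to 1.09 in bone marrow and 1.16 to 1.31 in spleen. Spleen mCherry (74.1 ± 7.64 FPKM) and bone marrow hM3Dq (56.3 ± 9.14), neighbours in the order of the 4 groups, overlapped.

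Eif4ebp1 (ENSMUSG00000031490, chromosome 8), the other translation inhibitor, binds the cap-binding factor eIF4E until mTORC1 phosphorylates it. In bone marrow it stood at 20.4, 22.4, 22.2 and 21.4 FPKM in hM3Dq libraries and at 14.5, 19.2, 18.8 and 17.9 FPKM in mCherry libraries. The FPKM ranges were separate, yet the log2 change of 0.23 ± 0.09 was not called (limma adjusted p = 0.170), and no alternative called it. In spleen, with 6.51, 6.02, 7.38 and 6.43 FPKM against 7.42, 6.00, 6.87 and 6.79, the groups lay over each other and the log2 change was -0.06 ± 0.10 (limma adjusted p = 0.753, 95% interval -0.29 to 0.17).

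Irs2 (ENSMUSG00000038894, chromosome 8, 10984681 to 11008458) rose in bone marrow by a small amount that stood close to the threshold. It stood at 5.85, 7.14, 5.28 and 6.35 FPKM in hM3Dq libraries and at 4.21, 3.88, 4.44 and 4.18 FPKM in mCherry libraries, without overlap. The log2 change was 0.47 ± 0.11 (limma adjusted p = 0.0450). The call was lost in each of the 8 fits that left out any 1 of the bone marrow libraries, with values of 0.40 to 0.52, and in 10 of 17 alternatives in all (adjusted p from 0.0212 to 0.126). In spleen the values were 5.51, 9.45, 5.96 and 7.64 FPKM against 5.48, 5.00, 5.76 and 5.47. The hM3Dq libraries were spread, replicate 5 sitting among the controls and replicate 6 highest, and the log2 change of 0.34 ± 0.15 was not called (limma adjusted p = 0.185). Its exons share 162 bases with an antisense gene, 9530052E02Rik, of mean 0.882 FPKM, and reads of the 2 strands cannot be told apart where they overlap unless the counting used strand.

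The transcripts of the FOXO factors were not called in either tissue. Foxo1 (ENSMUSG00000044167, chromosome 3), which in lymphocytes maintains homing and survival genes, stood at 22.2, 25.6, 20.3 and 21.6 FPKM in spleen hM3Dq libraries and at 20.4, 23.5, 22.5 and 21.9 in mCherry libraries. In bone marrow it stood at 4.57, 4.41, 4.12 and 3.95 FPKM against 4.08, 2.91, 3.97 and 4.52. The groups overlapped in both tissues, and the log2 changes were 0.08 ± 0.15 in bone marrow and 0.00 ± 0.08 in spleen (limma adjusted p = 0.774 and 0.997), each with a sign that turned under some alternatives. The 95% interval in spleen ran from -0.17 to 0.17. Exons of Foxo1 share 674 bases with the antisense gene Gm20402, which averaged 24.0 FPKM. How reads of these bases were assigned is not known, so the value of Foxo1 may be too high or too low. Foxo3 (ENSMUSG00000048756, chromosome 10), its close relative and a regulator of quiescence and apoptosis, stood at 13.3, 11.4, 15.97 and 16.7 FPKM in bone marrow hM3Dq libraries and at 16.2, 18.2, 17.6 and 15.7 in mCherry libraries. Replicates 5 and 6 of hM3Dq, the libraries with the lowest haemoglobin shares, were the low ones, and the log2 change was -0.32 ± 0.13 (limma adjusted p = 0.185), or -0.19 with the haemoglobin share as a covariate. In spleen the values were 14.8, 11.4, 12.6 and 13.8 FPKM against 15.1, 10.4, 14.6 and 14.9, with overlap and a log2 change of -0.07 ± 0.14 (limma adjusted p = 0.787). Replicate 6 of hM3Dq and replicate 2 of mCherry, which have the lowest haemoglobin shares of their groups in spleen, were the lowest Foxo3 libraries too.

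**Figure D2:**
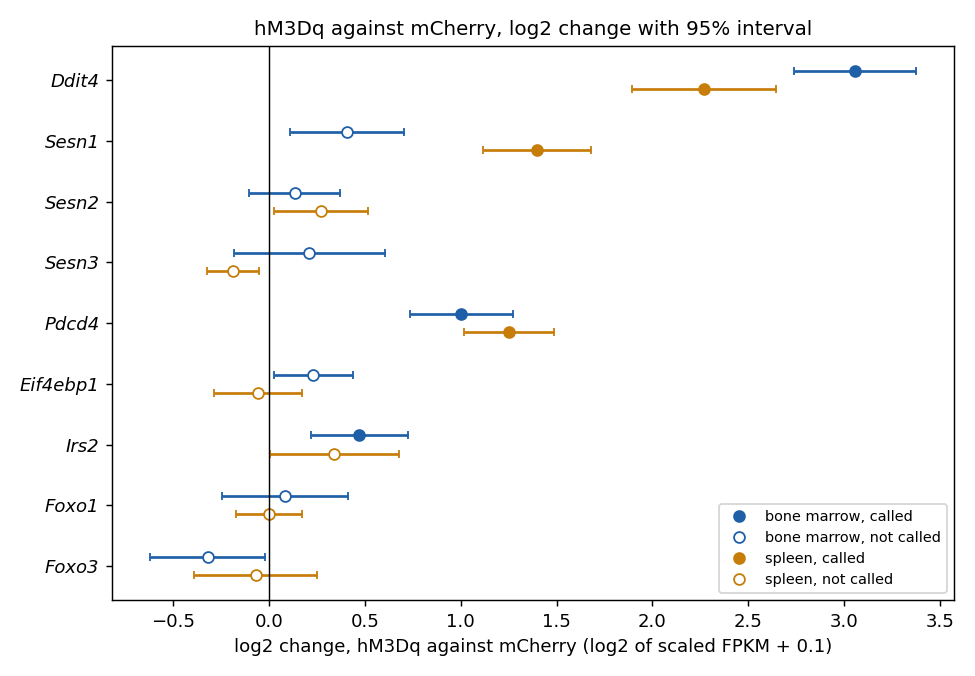
Log2 change, hM3Dq against mCherry, of each of the 9 genes in bone marrow (blue) and spleen (orange), with 95% intervals from limma and filled points for called genes. Ddit4 has the highest value in both tissues, Pdcd4 is called in both, Sesn1 is called in spleen (1.40) and not in bone marrow (0.41), and the intervals of Foxo1 span 0.

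Markers of cell types moved beside these changes. In spleen, 6 of 10 B cell markers were lower in hM3Dq libraries, Cr2 (-1.17) and Ms4a1 (-0.76) among them, and their summed level was 1043 to 1178 FPKM against 1268 to 1542. Of 4 leukocyte markers 1 was lower in spleen, Ptprc, at -0.33 ± 0.07 (limma adjusted p = 0.0291). Coro1a (-0.13), Cd53 (-0.17) and Laptm5 (0.18) were not called, and the summed level of the list was 805 to 916 FPKM against 858 to 997. In spleen 2 of 8 monocyte and macrophage markers were also lower, and 1 of 6 NK cell and 1 of 6 plasma cell markers higher. Of 12 neutrophil markers in spleen 1 was lower, Csf3r (-0.71), while the median log2 change of the list was 0.44 and its summed level 2337 to 5483 FPKM against 1818 to 4218, with overlap. Of 10 T cell markers limma called 0 in either tissue (1 in bone marrow and 3 in spleen at an unadjusted p below 0.05, 0 with voom weights), with summed levels in spleen of 366 to 400 FPKM against 343 to 499. In bone marrow, 2 of 6 plasma cell markers were higher, Jchain (0.72) and Prdm1 (0.76). Of the rest, uncalled, Xbp1 (0.13) and Irf4 (0.27) pointed up and Sdc1 (-0.28) and Tnfrsf17 (-0.11) down. The summed level of the list was 348 to 466 FPKM against 218 to 259. Of 10 B cell markers there 1, Fcer2a, was lower (-0.94). The 12 neutrophil and 8 monocyte and macrophage markers were not called in bone marrow (3 of each list at an unadjusted p below 0.05, 0 with voom weights). None of these markers was at 0 in all libraries of a group. The part of these shifts in the results was not tested. Of 8 erythroid markers limma called 0 in either tissue (2 and 0 at an unadjusted p below 0.05, 0 with voom weights), with median log2 changes of -0.99 and -0.72. Adding the haemoglobin share to the fit, the log2 changes were 3.09 for Ddit4 and 0.99 for Pdcd4 in bone marrow, and 2.19 for Ddit4, 1.35 for Sesn1 and 1.20 for Pdcd4 in spleen, all still called. Irs2 in bone marrow lost its call in that fit (0.45, limma adjusted p = 0.0693).

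Whether the response differed between tissues was asked with an interaction over all 16 libraries, spleen effect minus bone marrow effect. No gene of the 9 was called, where 0.1% of 17987 genes were (18 genes, 11 higher and 7 lower, or 5 and 6 without scaling), while 4 of the 9 had an unadjusted p below 0.05 and voom weights called 1, Sesn1. Sesn1 came closest, with a difference of 0.98 ± 0.18 (limma adjusted p = 0.0613) and the 25th smallest p of all genes. It was called in 4 of 25 alternatives, among them the fit without spleen hM3Dq replicate 5 (1.10, adjusted p = 0.0186), and adjusted p ranged from 0.0133 to 0.157. Ddit4 had a difference of -0.80 ± 0.23 (95% interval -1.29 to -0.31, limma adjusted p = 0.223), a value below 0 standing for a lower log2 change in spleen. The others with an unadjusted p below 0.05 were Sesn3 (-0.41 ± 0.18, -0.79 to -0.023, limma adjusted p = 0.532) and Eif4ebp1 (-0.30 ± 0.13, -0.58 to -0.0093, adjusted p = 0.548). For Pdcd4 the difference was 0.24 ± 0.16 (95% interval -0.10 to 0.58, limma adjusted p = 0.725) and for Irs2 -0.14 ± 0.18 (-0.53 to 0.25, adjusted p = 0.890).

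Levels of most of the 9 genes differed between tissues in control mice. In mCherry libraries 5 of 9 were called higher in spleen, where 35.0% of 16943 genes were, and 3 of 9 lower, where 34.5% were. In hM3Dq libraries 5 of 9 were higher, where 31.8% of 16770 genes were, and 2 of 9 lower, where 33.4% were. These calls are common among all genes, in tissues whose neutrophil markers sum to 46550 to 65070 FPKM in bone marrow and 1818 to 5483 in spleen, and those of T cells to 21.5 to 28.3 and 343 to 499. Sesn3 had the widest gap, at 16.1 ± 0.53 FPKM in spleen against 1.59 ± 0.26 in bone marrow of mCherry mice, a log2 difference of 3.02 ± 0.12 (limma adjusted p = 1.29e-07). Ddit4 (2.49 ± 0.17), Foxo1 (2.24 ± 0.14), Sesn1 (1.27 ± 0.08) and Pdcd4 (1.21 ± 0.09) were also higher in spleen. Lower in spleen were Eif4ebp1, at 6.77 ± 0.59 FPKM against 17.6 ± 2.12 (-1.62 ± 0.10), Sesn2 (-1.05 ± 0.11) and Foxo3 (-0.58 ± 0.12, limma adjusted p = 0.00269).

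The sestrins thus lay on opposite sides, Sesn1 and Sesn3 higher in spleen and Sesn2 higher in bone marrow, as did Pdcd4 and Eif4ebp1. Irs2 was 5.00 to 5.76 FPKM in spleen and 3.88 to 4.44 in bone marrow of mCherry mice, with no overlap in FPKM, but after scaling for composition the difference was 0.11 ± 0.09 (limma adjusted p = 0.299). Without that scaling it was 0.37 and called (adjusted p = 0.00350), a setting under which the median of all genes also moved, from 0.02 to 0.27 in mCherry and from -0.0069 to 0.22 in hM3Dq libraries, and the calls of all genes split 7977 to 4083 (5935 to 5837 with scaling) and 7107 to 4155 (5325 to 5604). In hM3Dq libraries the differences were 2.61 ± 0.14 for Sesn3, 2.24 ± 0.16 for Sesn1, 2.14 ± 0.09 for Foxo1, 1.68 ± 0.13 for Ddit4 and 1.44 ± 0.13 for Pdcd4. Eif4ebp1 was lower in spleen at -1.93 ± 0.10 and Sesn2 at -0.93 ± 0.11. Foxo3, at -0.35 ± 0.15 (limma adjusted p = 0.0666), was not called, though 5 of 18 alternatives called it, among them the fit without bone marrow hM3Dq replicate 6 (-0.45, adjusted p = 0.0214). Irs2 was not called (-0.04 ± 0.16, limma adjusted p = 0.830).

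**Figure D3:**
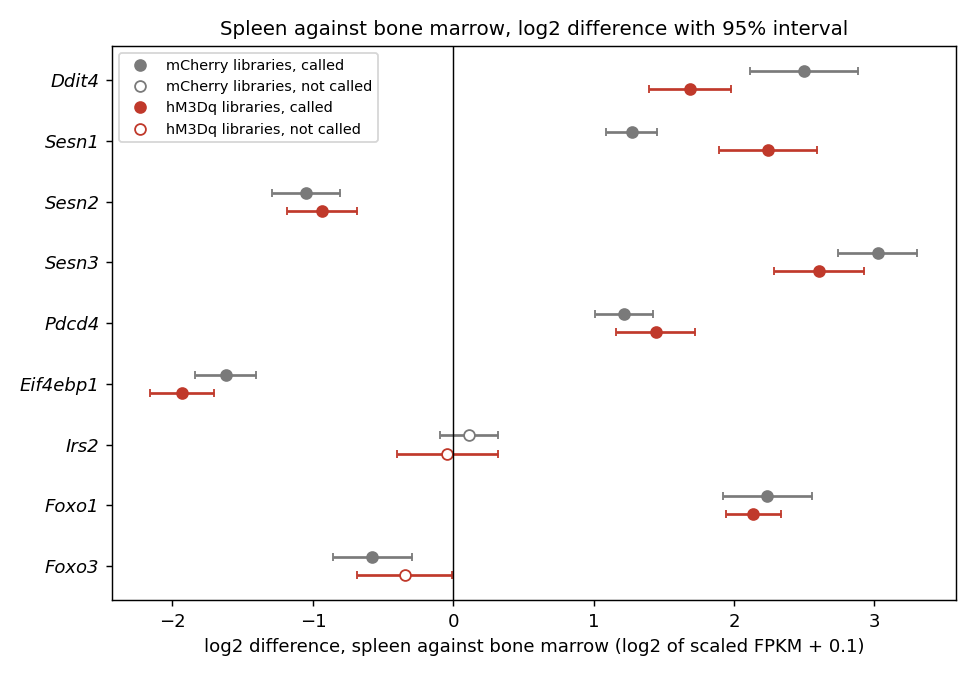
Log2 difference, spleen against bone marrow, of each of the 9 genes in mCherry (grey) and hM3Dq (red) libraries, with 95% intervals from limma and filled points for called genes. Sesn3 is the highest in both (3.02 and 2.61), Eif4ebp1 the lowest (-1.62 and -1.93), and Irs2 lies at 0.11 and -0.04.

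The rest of the pathway was described with lists of genes by function, each read against the shares of all genes called given above. These lists too were chosen with earlier results of these data known. The list of PI3K and AKT brakes also held inhibitors of mTOR or mTORC1, among them Deptor, Tsc1 and Tsc2. Of this list, 4 of 16 tested genes rose in bone marrow and 4 of 16 in spleen, with all 4 shared, and 0 fell (1 and 0 at an unadjusted p below 0.05, 0 with voom weights). Pik3ip1, which binds and inhibits the catalytic subunit of PI3K, stood at 9.84, 15.03, 13.2 and 12.7 FPKM in bone marrow hM3Dq libraries and at 2.03, 2.69, 3.58 and 2.62 in mCherry libraries. In spleen it stood at 41.5, 57.6, 46.4 and 50.9 FPKM against 11.4, 14.2, 14.5 and 13.0. No hM3Dq library came near a control library of its tissue, and the log2 changes were 2.12 ± 0.18 and 1.86 ± 0.11 (limma adjusted p = 8.40e-04 and 3.31e-04), called in all alternatives. Deptor, an inhibitor bound to mTOR itself, rose from a low level, 1.43 ± 0.34 to 2.93 ± 0.45 FPKM in bone marrow (0.93 ± 0.19, limma adjusted p = 0.0249) and 0.76 ± 0.11 to 1.23 ± 0.12 in spleen (0.62 ± 0.14, adjusted p = 0.0310). Inpp5d, the SHIP1 phosphatase of blood cells that removes the lipid signal of PI3K, rose by 0.37 ± 0.08 in bone marrow and 0.76 ± 0.15 in spleen (limma adjusted p = 0.0340 and 0.0237). Inpp5k, another inositol phosphatase, rose by 0.39 ± 0.08 and 0.33 ± 0.06 (limma adjusted p = 0.0318 and 0.0176).

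Deptor, Inpp5d and Inpp5k lost their calls in some fits that left out 1 library. In bone marrow Deptor did so without hM3Dq replicates 6 or 8 or mCherry replicates 2 or 4 (all 8 such values 0.80 to 1.09), Inpp5k without all but hM3Dq replicate 5 and mCherry replicate 3 (0.35 to 0.44) and Inpp5d without all but hM3Dq replicate 8 (0.33 to 0.42). In spleen Deptor did so without hM3Dq replicates 6, 7 or 8 or mCherry replicates 1, 2 or 4 (0.55 to 0.71), Inpp5k without hM3Dq replicate 8 or mCherry replicates 1, 3 or 4 (0.29 to 0.35) and Inpp5d without hM3Dq replicate 8 or any of the mCherry replicates (0.62 to 0.88). Without the filter Deptor (limma adjusted p = 0.0738 and 0.119) and Inpp5d (0.0578 and 0.0538) lost their calls in bone marrow and spleen, and Inpp5k in bone marrow (0.0541). Deptor in spleen lost it with the FPKM filter (adjusted p = 0.0953) and with the haemoglobin covariate (0.0603), and Inpp5d in bone marrow in the fit of all 16 libraries (0.0676). Tsc1 (0.26 and 0.14) and Tsc2 (-0.04 and -0.08), the complex through which DDIT4 protein acts, were not called in either tissue, with adjusted p from 0.266 to 0.797.

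In the positive arm of PI3K and AKT, genes were called in both directions. In bone marrow 0 of 19 genes rose (4 at an unadjusted p below 0.05, 2 with voom weights) and 1 fell, Mapkap1, a subunit of mTORC2 (-0.41 ± 0.10, limma adjusted p = 0.0433). In spleen 3 of 18 rose, the regulatory subunit genes Pik3r1 (0.44 ± 0.08, limma adjusted p = 0.0142) and Pik3r5 (0.41 ± 0.08, adjusted p = 0.0249) and the catalytic subunit gene Pik3cg (0.34 ± 0.07, adjusted p = 0.0252). The 2 that fell were Mapkap1 (-0.51 ± 0.08, limma adjusted p = 0.0104) and another regulatory subunit gene, Pik3r2 (-0.39), named after its value was seen. The core of mTORC1 and its lysosomal activators had 0 of 19 genes called in either tissue (4 in each at an unadjusted p below 0.05, 0 and 1 with voom weights), with log2 changes of -0.64 to 0.52 in bone marrow and -0.31 to 0.46 in spleen. Mtor, the kinase, stood at -0.04 ± 0.11 and -0.12 ± 0.08 (limma adjusted p = 0.877 and 0.333) and its partner Rptor at 0.26 ± 0.12 and 0.04 ± 0.11 (adjusted p = 0.210 and 0.845). Amino acid sensing by GATOR and KICSTOR, to which the sestrins bind, had 0 of 13 genes called in either tissue (0 and 1 at an unadjusted p below 0.05, 0 and 1 with voom weights). Of 18 genes of translation initiation and its kinases, 0 were called in spleen (6 at an unadjusted p below 0.05, 0 with voom weights) and 1 fell in bone marrow, Eef2k, the kinase that slows elongation (-0.44 ± 0.10, limma adjusted p = 0.0352). The bone marrow call of Mapkap1 was lost without any of the libraries but hM3Dq replicate 6 (-0.47 to -0.35), that of Eef2k without any of the 8 (-0.48 to -0.37), and the spleen call of Pik3r1 without mCherry replicate 1 (0.39 to 0.48 over all such fits). The spleen call of Pik3r5 was lost without hM3Dq replicates 6 or 8 or mCherry replicates 1, 3 or 4 (0.36 to 0.45), and that of Pik3cg without hM3Dq replicates 6 or 8 or mCherry replicates 1 or 4 (0.31 to 0.37). Mapkap1 and Eef2k in bone marrow also lost their calls without scaling (limma adjusted p = 0.103 and 0.0541) and without the filter (0.0728 and 0.0627), and Eef2k with the haemoglobin covariate (0.0536) and in the fit of all 16 libraries (0.0806).

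Several target genes of the FOXO factors rose. In bone marrow 5 of 20 genes of the FOXO family and its targets rose and 0 fell (1 at an unadjusted p below 0.05, 0 with voom weights), and in spleen 5 of 19 rose, 4 of them shared with bone marrow, and 2 fell. Il7r, the receptor for the survival factor interleukin-7, rose in both (0.86 ± 0.11 and 1.12 ± 0.13, limma adjusted p = 0.00632 and 0.00500). So did Txnip, which limits glucose uptake (0.76 ± 0.11 and 1.33 ± 0.17, limma adjusted p = 0.0110 and 0.00532), and Cited2, a transcriptional regulator (0.74 ± 0.10 and 0.62 ± 0.09, adjusted p = 0.00632 and 0.00939). Fbxo32, a ubiquitin ligase subunit known from muscle wasting, rose too (0.76 ± 0.18 and 0.66 ± 0.13, limma adjusted p = 0.0430 and 0.0234). Its call was lost in bone marrow without any of the libraries but hM3Dq replicate 5 (0.69 to 0.91), and in spleen without hM3Dq replicate 8 or mCherry replicates 1, 3 or 4 (0.57 to 0.74). Without the filter it was called in neither tissue (limma adjusted p = 0.145 and 0.0523), and with the haemoglobin covariate not in bone marrow (0.81, adjusted p of 0.05). Bcl6, a transcriptional repressor that acts in germinal centre B cells, was among the genes that fell in spleen (-0.72 ± 0.11, limma adjusted p = 0.00992).

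Sesn1, Sesn2 and Ddit4 are also known as targets of p53 or of the amino acid stress factor ATF4. Of the p53 list 1 of 13 genes rose in bone marrow and 2 of 14 in spleen. In each tissue 0 fell (2 at an unadjusted p below 0.05, 0 with voom weights), and the rest of the list was not called. Trp53inp1, which promotes cell death and autophagy, rose in both (0.92 ± 0.08 and 0.80 ± 0.14, limma adjusted p = 8.40e-04 and 0.0154). Bbc3, the cell death gene that encodes PUMA, rose in spleen from 6.39 ± 1.02 to 19.3 ± 2.32 FPKM (1.56 ± 0.13, limma adjusted p = 0.00145) and stood at 3.32 ± 0.21 and 3.23 ± 0.63 FPKM in bone marrow. Of the ATF4 list 0 of 16 genes rose in bone marrow and 0 of 17 in spleen (1 and 2 at an unadjusted p below 0.05, 0 with voom weights), and Mthfd2, a mitochondrial folate enzyme, fell in both (-0.48 ± 0.10 and -0.56 ± 0.13, limma adjusted p = 0.0305 and 0.0364). That call was lost in bone marrow without any of the libraries but hM3Dq replicate 8 and mCherry replicate 1 (-0.54 to -0.41), and in spleen without any but hM3Dq replicate 5 (-0.64 to -0.47). It was also lost without the filter in both tissues (limma adjusted p = 0.0589 and 0.0743), without scaling in bone marrow (0.0609) and with the haemoglobin covariate in spleen (0.0644). All 6 of 6 genes of a list of classical glucocorticoid targets rose in both tissues, with median log2 changes of 2.25 and 1.79. The lowest value in spleen, 0.90, was that of Zbtb16, whose alternatives are not given here. In bone marrow and spleen the log2 changes were 2.32 and 2.87 for Fkbp5, 2.89 and 1.66 for the clock gene Per1, 1.71 and 1.82 for Tsc22d3, 2.17 and 1.76 for Klf9 and 2.59 and 1.88 for the phosphatase gene Dusp1, and these calls held in all 17 alternatives of each tissue.

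**Figure D4:**
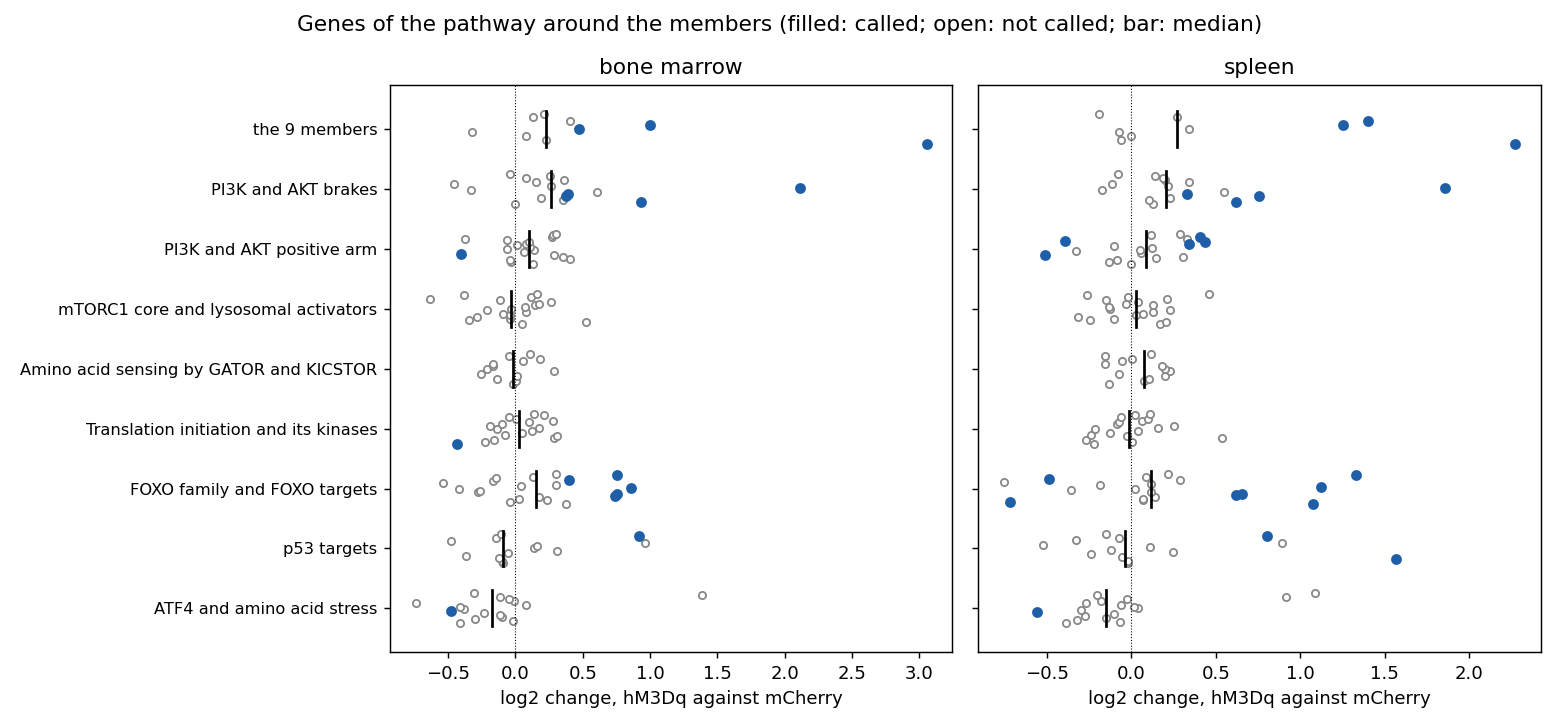
Log2 change, hM3Dq against mCherry, of the 9 genes and of each gene of 8 lists around them in bone marrow (left) and spleen (right), with filled points for called genes and bars for medians. The high point among the PI3K and AKT brakes is Pik3ip1 (2.12 and 1.86), and no gene of the mTORC1 core or of GATOR and KICSTOR is filled.

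How the 9 genes varied together was described over the 16 libraries after the mean of each tissue was subtracted. The libraries share the virus groups, so these values largely restate the group differences and carry no test. Ddit4 and Pdcd4 had r = 0.956, Sesn1 and Pdcd4 0.905 and Ddit4 and Sesn1 0.769, while Foxo3 was negative with every gene but Eif4ebp1, down to -0.571 with Sesn3. Each was also compared with 12208 named genes tested in both tissues, leaving out predicted gene models and antigen receptor segments. Among these, Pik3ip1 (r = 0.984) and Sla (0.981) were most like Ddit4. Tsc22d3 (0.978), a leucine zipper gene induced by glucocorticoids, and Pnpla2, a triglyceride lipase (0.977), were most like Pdcd4. Dirc2 (r = 0.978) and Dclre1b (0.971) were nearest to Sesn1, and both were called in spleen and not in bone marrow (log2 changes of 0.90 and 0.89 against 0.31 and 0.20). For Irs2 they were Stk17b (0.963) and Baz2a (0.954), for Sesn2 Scnn1a (0.889) and Bnip3 (0.853), and for Sesn3 Nab1 (0.960) and Lypla1 (0.925). Those of Eif4ebp1 were Grina (0.858) and Idh3b (0.826), of Foxo1 Adamts7 (0.846) and Ablim1 (0.842), and of Foxo3 Asb1 (0.969) and Fam234b (0.968).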

How the data were processed

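Poly(A) RNA of 16 libraries was sequenced, and the authors deposited 1 file per library with FPKM values, a unit named in the file headers, for 49585 Ensembl genes. The submitters' processing notes name CASAVA 1.9, STAR 2.6.1a, featureCounts, edgeR 3.28.1 and GRCm38. Annotation release and strand setting: not given in the sources used here.

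Symbols and exon lengths came from GENCODE M21 (GRCm38), which named 49326 genes (99.5%). FPKM times exon length gave whole reads within 0.01 for 27922 of 31954 genes above 0 (87.4%), and for the other 4032 with the smallest other length that did. These reads served the filter, the scaling and a fit with voom weights. FPKM divided by a TMM factor (trims of 30% and 5%, computed by own code), plus 0.1, was log2-transformed and fitted with limma 3.58.1 (R 4.3.3) with a trend, two-sided. Fold changes of low genes are understated on this scale. Genes needed 10 reads in at least 4 libraries of a comparison, and p-values were adjusted by Benjamini-Hochberg over all genes tested. Replicates of a group differed beyond sampling noise (chi-square per degree of freedom 6.61 to 41.5). The fit was tested on simulated data.

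The 9 genes, the lists and the tests were chosen with earlier results of these data known. All 9 genes are named. Of each list, genes with the smallest p were named, at most 4 called genes per list and tissue, besides Pik3ip1, Tsc1, Tsc2, Deptor, Mtor and Rptor, and 1 further gene always named by this rule is not reported here. The labels do not say which libraries of the 2 tissues came from the same mouse, and the p-values measure the spread between libraries. Replicate numbers differ between the virus groups, so a batch that follows them cannot be told apart from the virus. Alternatives were other pseudocounts (1 and 0.01), no scaling, median-of-ratios scaling, no filter, an FPKM filter of 1, voom weights, the haemoglobin share as a covariate, all 16 libraries in 1 fit, a replicate block and leaving out each library. Promoter windows came from the RefSeq table for GRCm38.p6. Tables were handled in Python 3.11.15 with numpy 2.4.6, pandas 2.3.3 and matplotlib 3.10.9.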

Additional observations from a re-analysis of the deposited data

Results flagged for a closer look

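Among 36 genes in 4 groups, 5 of 144 groups of libraries held a library whose gap to the nearest of the other 3, as a share of the range of the group, exceeded the 95% critical value of Dixon, where chance gives about 1 in 20. Foxo3 in spleen mCherry replicate 2 (10.4 FPKM) was far below the other 3 controls, and this library also had the lowest haemoglobin share of its group (0.569%); its part in the value was not tested. Tsc2 was low in spleen hM3Dq replicate 5 (9.27 FPKM). Bone marrow mCherry replicate 1 was low for both Txnip (82.6 FPKM) and Tsc22d3 (9.59 FPKM). Trp53inp1 was high in bone marrow hM3Dq replicate 6 (65.7 FPKM). Bbc3 differed between tissues in its response to hM3Dq, with a spleen effect minus bone marrow effect of 1.68 ± 0.21 on the log2 scale (limma adjusted p = 0.00425), its log2 change being 1.56 in spleen and -0.12 in bone marrow.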

How the results depend on the processing

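Of the 9 genes, the calls of Ddit4 and Pdcd4 in both tissues and of Sesn1 in spleen held under all 17 alternatives of their comparison. The number called in bone marrow was 2 or 3, in spleen 3 throughout, and between tissues 8 or 9 in mCherry and 7 or 8 in hM3Dq libraries. For the difference of the effects it was 0, or 1 (Sesn1) with a pseudocount of 1 (adjusted p = 0.0276), with voom weights (0.0436), with the replicate block (0.0133) and without spleen hM3Dq replicate 5 (0.0186), so leaving out a library gave 0 to 1. The cause was not tested.

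The replicate block called Foxo3 between tissues in hM3Dq libraries (adjusted p = 0.0260) and changed no other call of the 9 genes besides Sesn1. Over all genes it called 9 in place of 18 for the difference of the effects, 11322 in place of 11772 between tissues in mCherry libraries and 11154 in place of 10929 in hM3Dq libraries. Libraries of the 2 tissues with the same number had correlated deviations of 0.055 to 0.475 for hM3Dq and 0.002 to 0.157 for mCherry over 13736 genes, and not every library correlated best with its own number, so the numbers were not taken as pairs. Within a tissue the virus groups share no number, and no block could be used.

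Signs of uncalled log2 changes turned as follows. In bone marrow, fits that left out 1 library ran from -0.069 to 0.15 for Foxo1, from -0.080 to 0.038 for Mtor and from -0.10 to 0.0030 for Bcl6. Without scaling Tsc2 was 0.030, Mtor 0.034 and Bcl6 0.028, and with the haemoglobin covariate Pik3cg was -0.040. In spleen, fits that left out 1 library ran from -0.12 to 0.0094 for Eif4ebp1, from -0.048 to 0.038 for Foxo1, from -0.19 to 0.023 for Foxo3 and from -0.0082 to 0.11 for Rptor. The haemoglobin covariate gave 0.0050 for Eif4ebp1, -0.045 for Foxo1 and 0.042 for Foxo3, and the fit of all 16 libraries gave -0.014 for Foxo1. The difference of the effects ran from -0.16 to 0.055 for Foxo1. Between tissues in hM3Dq libraries, Irs2 ran from -0.17 to 0.049 and was 0.19 without scaling. The cause was not tested.

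Over all genes, the 781 calls in bone marrow became 300 without the filter, 1618 with all 16 libraries in 1 fit and 271 to 714 with a library left out. The 1390 in spleen became 597 without the filter, 872 with the haemoglobin covariate and 410 to 1730 with a library left out. The 18 for the difference of the effects became 81 with a pseudocount of 1, 11 without scaling, 29 with voom weights and 3 to 36 with a library left out.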
